A study of Homo sapiens with 6 samples.

Results

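The 32 genes described here are parts of the cell death machinery. They encode receptors and a ligand, adaptors and kinases, caspases, caspase inhibitors, apoptosome and mitochondrial factors, and effectors of DNA fragmentation, necroptosis and pyroptosis. They were chosen by symbol, and all 32 were found among the 56637 symbols of the count files. RNA had been sequenced from the human myeloma line MM.1S in 3 libraries of cells given a lentiviral hairpin that targets KDM6B, the gene of a histone demethylase (shKDM6B), and in 3 libraries of cells given a lentiviral hairpin that targets luciferase (shLuc). Cells of both groups had been selected with puromycin, so both carry a vector, and the labels name 1 hairpin target per group with no rescue, so that effects of KDM6B depletion and other effects of the hairpin sequences cannot be told apart. The design sets KDM6B knockdown against this control.

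Death receptors of the tumour necrosis factor (TNF) receptor family carry a death domain that recruits the adaptors FADD or TRADD when the ligand binds. FADD brings in CASP8 and CASP10, which then activate executioner caspases, and CFLAR competes with them for FADD. In the mitochondrial route, cytochrome c released from the intermembrane space assembles with APAF1 into the apoptosome, which activates CASP9, while XIAP holds caspases in check and is itself opposed by DIABLO and HTRA2. Where caspase activity is blocked, RIPK1 and RIPK3 can activate MLKL and kill the cell by necroptosis. Myeloma cells are plasma cells, and the TRAIL ligand TNFSF10 and its receptors have been studied in them as a route to cell killing.

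Total counts were 7952156 to 9848351 in shKDM6B libraries and 7338393 to 8996159 in shLuc libraries. The 9 plasma cell markers were all detected, with summed levels of 2600 to 2929 CPM (counts scaled to a common effective library size) in shKDM6B libraries and 2755 to 3013 CPM in shLuc libraries. The 10 epithelial markers, mainly keratins, summed to 35.5, 46.2 and 1.92 CPM in shKDM6B replicates 1 to 3 and to 12.2, 2.94 and 3.20 CPM in shLuc replicates 1 to 3. The part of those epithelial transcripts in the results was not tested, and values without the 3 libraries that carry most of them (shKDM6B replicates 1 and 2 and shLuc replicate 1, the libraries with keratin counts below) are given where a call ended. The 5 T cell markers summed to 5.14 to 6.46 CPM in shKDM6B libraries and 7.96 to 10.2 CPM in shLuc libraries, the 4 monocyte markers to 1.53 to 3.11 and 1.51 to 2.37 CPM, the 4 mature B cell markers to at most 0.202 and 0.137 CPM, and the 4 fibroblast markers to at most 3.47 and 0.961 CPM. CD22, CD3G and FCGR3A had 0 counts in all 6 libraries. KDM6B, the target of the hairpin, stood at 30.4, 32.3 and 35.1 CPM in shKDM6B libraries, against 56.2, 57.0 and 48.2 CPM in shLuc libraries (log2 fold change -0.71, SE 0.073, adjusted p = 7.72e-08).

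Of the 32 genes, 30 had enough counts to be tested. DFFB, the nuclease that cuts chromosomal DNA in apoptosis, and the TNF receptor TNFRSF1B rose most in shKDM6B cells. The decoy TRAIL receptor TNFRSF10D, the ligand TNFSF10 and the inflammatory caspases CASP4 and CASP1 fell most. In all, 7 genes rose, 6 fell and 17 missed the threshold, an adjusted p under 0.05 in edgeR's quasi-likelihood test over all 13839 tested genes. These 13 called genes made up 43.3% of the 30 tested, beside 39.1% of all tested genes (20.1% higher and 18.9% lower), so the share of called genes was close to the background. When sparsely covered genes set the scaling, the split over all genes was 3128 higher and 1901 lower, against 2783 and 2622. Among the 30 genes that scaling gave 9 higher and 4 lower, against 7 and 6. The median log2 fold change of the 30 genes was 0.03, beside -0.0053 for all tested genes. Changes were small: 6 of the 13 calls were under 1.2-fold, and 1 of the 30 genes (3.33%) was changed by 1.5-fold or more, beside 10.7% of all tested genes. The 3 shKDM6B values lay wholly above the 3 shLuc values for 9 genes, beside 24.5% of all tested genes, and wholly below them for 10, beside 23.9%. Together these were 63.3% of the 30, beside 48.4% of all tested genes. Of the 13 calls, 6 (TNFRSF1B, TNFRSF10D, CASP1, CASP4, HTRA2 and DFFB) held in each of the 16 alternative settings tried, which covered scaling, filters, tests and omitted libraries.

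**Figure D1:**
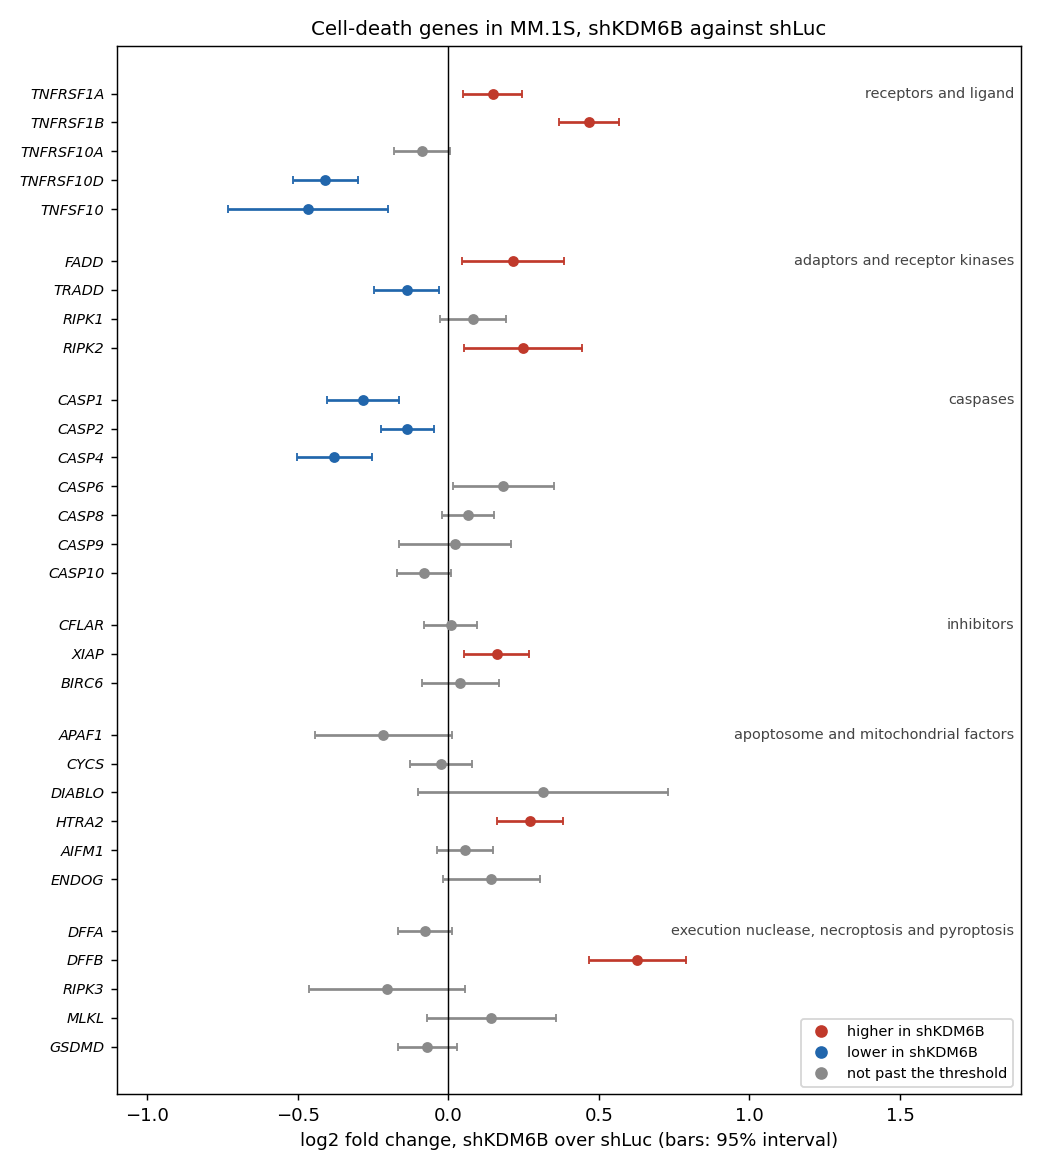
Log2 fold change of shKDM6B over shLuc (x axis) for the 30 tested cell death genes, ordered by role; points are edgeR estimates and bars their 95% intervals from 3 libraries per group. Red points are the 7 genes past the threshold as higher in shKDM6B, blue points the 6 that were lower and grey points the 17 that did not pass, and the values run from -0.47 for TNFSF10 to 0.63 for DFFB.

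Levels of different genes can be compared only per length, here as CPM per kilobase of all merged annotated exons, a measure that understates genes with many alternative exons. In shKDM6B cells TNFRSF1B (41.5 CPM per kilobase), CASP10 (35.6), AIFM1 (34.4), ENDOG (29.1) and CASP8 (28.5) had the highest levels of the 30 genes. In shLuc cells the highest were CASP10 (37.6 CPM per kilobase), AIFM1 (33.1), TNFRSF1B (30.0), TRADD (29.5) and TNFRSF10A (29.3). TNFRSF1B thus led in shKDM6B cells and stood behind CASP10 and AIFM1 in shLuc cells. At the low end, MLKL had 2.77 CPM per kilobase in shKDM6B cells and 2.51 in shLuc cells, APAF1 1.71 and 1.99, and DIABLO 0.892 and 0.707. TNFRSF10C and TNFRSF25 were close to undetected in both groups.

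**Figure D2:**
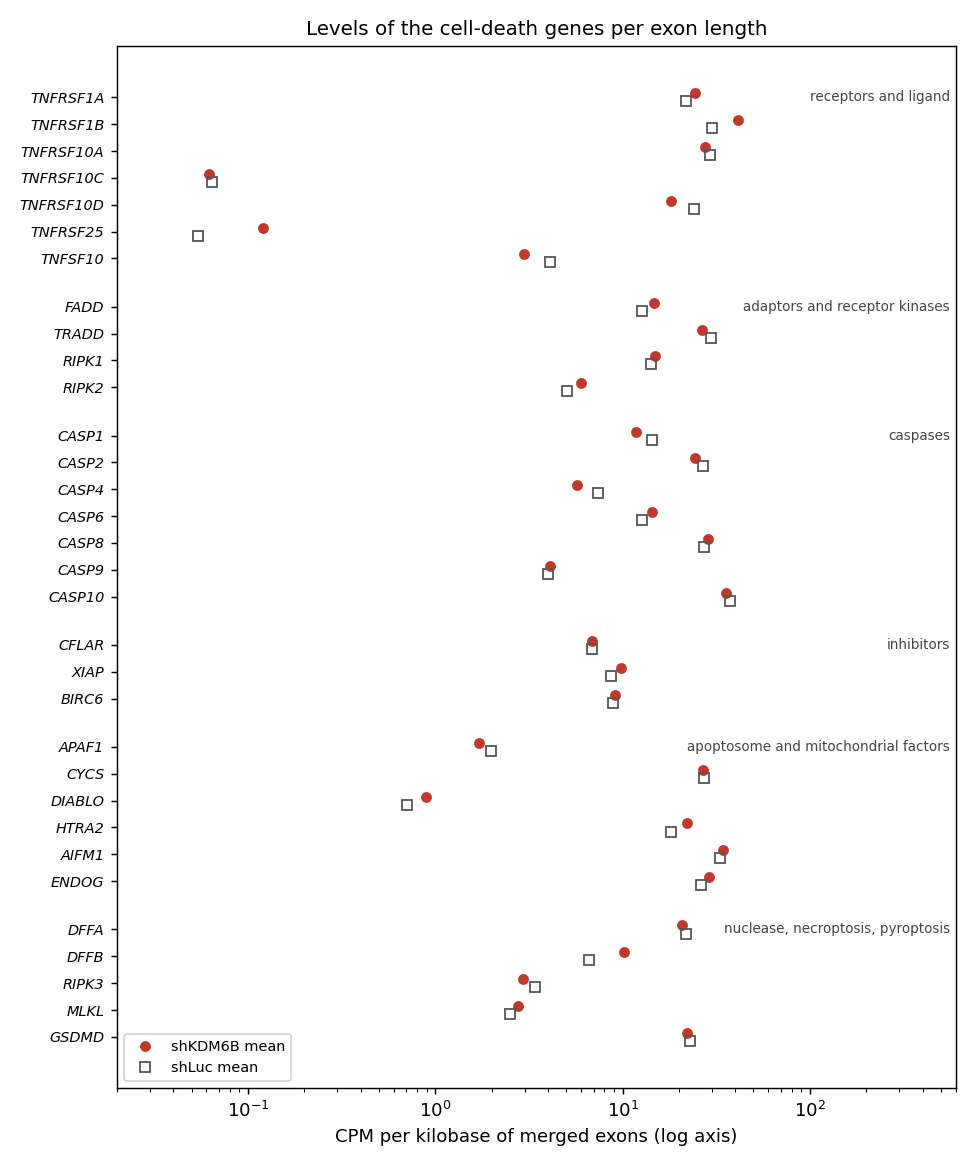
Mean level of the 32 cell death genes in CPM per kilobase of merged exons (x axis, log scale), ordered by role, with shKDM6B as filled circles and shLuc as open squares (3 libraries each). Most genes lie between 1 and 50 CPM per kilobase in both groups, DIABLO lies below 1, and the receptors TNFRSF10C and TNFRSF25 lie at 0.121 or less.

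Among the receptors and ligand, 2 of the 5 tested genes rose, 2 fell and 1 did not pass. TNFRSF1B, a TNF receptor without a death domain that signals through TRAF adaptors, had 165, 153 and 151 CPM in shKDM6B libraries, against 108, 119 and 111 CPM in shLuc libraries. Every shKDM6B value lay above every shLuc value, and the means were 156.3 ± 7.85 CPM in shKDM6B and 112.9 ± 5.38 CPM in shLuc (n = 3 each, ± SD). The log2 fold change was 0.47 (SE 0.048, adjusted p = 7.48e-08). TNFRSF1A, the TNF receptor with a death domain, had 94.9, 95.9 and 101 CPM in shKDM6B libraries, against 84.5, 91.8 and 87.2 CPM in shLuc libraries. Its rise was smaller (log2 fold change 0.15, SE 0.047, adjusted p = 0.0168), and the call was lost without shKDM6B replicate 3 (adjusted p = 0.0847), without shLuc replicate 1 (0.0790), without the 3 libraries with keratin counts (0.0543) and by the DESeq2 Wald test (0.114), the highest of the 16 alternatives, whose lowest was 0.00519. The ratio of TNFRSF1B to TNFRSF1A per kilobase, which needs no scaling between libraries and was chosen after the values were seen, was 1.85, 1.69 and 1.59 in shKDM6B libraries and 1.36, 1.38 and 1.36 in shLuc libraries, with no overlap.

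The receptors for TRAIL differed among themselves. TNFRSF10D, a decoy receptor whose death domain is truncated, had 64.3, 59.9 and 67.5 CPM in shKDM6B libraries, against 85.3, 87.5 and 82.3 CPM in shLuc libraries. The groups did not overlap, and the shKDM6B level was 75.3% of the shLuc level (log2 fold change -0.41, SE 0.052, adjusted p = 1.66e-06). TNFRSF10A, a TRAIL receptor with a full death domain that lies next to TNFRSF10D in the genome, had 79.5, 81.3 and 82.5 CPM in shKDM6B libraries, against 87.5, 85.7 and 85.8 CPM in shLuc libraries. All its shKDM6B values were below all its shLuc values, but the difference did not pass (log2 fold change -0.09, SE 0.045, adjusted p = 0.129), and its 95% interval ran from -0.18 to 0.005. The ratio of TNFRSF10D to TNFRSF10A per kilobase was 0.674, 0.615 and 0.683 in shKDM6B libraries and 0.813, 0.852 and 0.8 in shLuc libraries. Annotated antisense transcripts overlap 224 and 266 exon bases of TNFRSF10A, and the libraries, as far as the kit name shows, do not mark strand.

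TNFSF10, the gene of the ligand TRAIL, had 11.6, 8.24 and 11.1 CPM in shKDM6B libraries, against 13, 15 and 14.5 CPM in shLuc libraries. It was lower in every shKDM6B library, at 72.4% of the shLuc level (log2 fold change -0.47, SE 0.13, adjusted p = 0.00582), and the lowest value was that of shKDM6B replicate 2. Without the 3 libraries with keratin counts the adjusted p was 0.0650, the highest of the 16 alternatives, whose lowest was 0.000959, and the log2 fold change was -0.41. TNFRSF10C, a decoy receptor anchored by a lipid, had 1 count in each of the 6 libraries. TNFRSF25, a death receptor found mainly on T cells, had 7, 3 and 3 counts in shKDM6B libraries and 1, 3 and 2 counts in shLuc libraries. Neither was tested. TNFRSF25 shares 104 exon bases with its neighbour PLEKHG5, which had 19.6, 20.1 and 23.2 CPM in shKDM6B libraries, against 6.87, 6.44 and 7.60 CPM in shLuc libraries.

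The adaptors and receptor kinases moved by at most 1.19-fold. FADD, which links death receptors to CASP8, had 27.1, 25.7 and 28.3 CPM in shKDM6B libraries, against 24.7, 23.8 and 21.7 CPM in shLuc libraries (log2 fold change 0.21, SE 0.082, adjusted p = 0.0414). RIPK2, a kinase that acts below the bacterial sensors NOD1 and NOD2, had 19.3, 18.8 and 18.3 CPM in shKDM6B libraries, against 16.2, 15 and 16.2 CPM in shLuc libraries (log2 fold change 0.25, SE 0.094, adjusted p = 0.0407). Neither gene's groups overlapped, and both were higher in shKDM6B. TRADD, the adaptor that binds the death domain of TNFRSF1A, had 67.1, 68.8 and 69.7 CPM in shKDM6B libraries, against 79.9, 76.5 and 70.8 CPM in shLuc libraries. It was lower (log2 fold change -0.14, SE 0.052, adjusted p = 0.0394), and shLuc replicate 3 lay just above the highest shKDM6B value. FADD shares 1011 exon bases with an annotated antisense transcript, and TRADD shares 126 with FBXL8 on the opposite strand. FBXL8 did not pass (log2 fold change -0.0039, SE 0.093, adjusted p = 0.979). The part of these overlaps in the FADD and TRADD counts was not tested. RIPK1, a kinase shared by survival, apoptosis and necroptosis signalling, had 60.8, 65.0 and 63.5 CPM in shKDM6B libraries, against 60.0, 61.9 and 57.2 CPM in shLuc libraries, which overlapped (log2 fold change 0.08, SE 0.053, adjusted p = 0.237).

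These 3 calls were close to the threshold. FADD passed in 9 of the 16 alternatives, with adjusted p values from 0.0103 to 0.197 over all 16, and lost its call without shKDM6B replicate 1 (0.0741), shKDM6B replicate 3 (0.144), shLuc replicate 2 (0.0647) or shLuc replicate 3 (0.181). RIPK2 passed in 6 of the 16, with adjusted p values from 0.0138 to 0.286, the highest without the 3 libraries with keratin counts, and lost its call when any 1 of the 6 libraries was left out (0.0526 to 0.134). TRADD passed in 7 of the 16, with adjusted p values from 0.00691 to 0.522, the highest without the libraries with keratin counts, and lost its call without any 1 library except shLuc replicate 3 (0.0571 to 0.159).

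Of the 7 caspases, 3 fell, 0 rose and 4 did not pass. CASP4, a sensor of bacterial lipopolysaccharide in the cytosol, had 42.4, 39.7 and 42.6 CPM in shKDM6B libraries, against 51.2, 56.5 and 54.2 CPM in shLuc libraries. The groups were well apart, and the shKDM6B level was 76.9% of the shLuc level (log2 fold change -0.38, SE 0.060, adjusted p = 2.57e-05). CASP1, which the inflammasome activates and which processes interleukin precursors, had 44.2, 42.4 and 44.1 CPM in shKDM6B libraries, against 53.0, 55.1 and 51.1 CPM in shLuc libraries. It was also lower in every shKDM6B library, at 82.1% of the shLuc level (log2 fold change -0.28, SE 0.058, adjusted p = 0.000411). Both calls held in all 16 alternatives.

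CASP4 and CASP1 belong to one genomic cluster, with CASP5 between them in the annotation. CASP5 had 0 counts in all 6 libraries. CARD16, the next coding gene after CASP1 and a near copy of part of it, had 7.51, 6.45 and 7.77 CPM in shKDM6B libraries, against 7.83, 8.36 and 7.16 CPM in shLuc libraries (log2 fold change -0.10, SE 0.15, adjusted p = 0.641). The annotated pseudogene copy CASP1P2 had 1.40, 0.956 and 1.31 CPM in shKDM6B libraries, against 2.47, 2.37 and 1.98 CPM in shLuc libraries. It passed as lower (log2 fold change -0.88, SE 0.29, adjusted p = 0.019), on 8 to 21 counts per library. CARD17 had 3, 1 and 6 counts in shKDM6B libraries and 8, 10 and 12 counts in shLuc libraries, and was not tested. How the counting divided reads between CASP1 and its near copies is uncertain.

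CASP2, a caspase activated after DNA damage and mitotic errors, had 194, 201 and 191 CPM in shKDM6B libraries, against 219, 209 and 217 CPM in shLuc libraries. It was lower by a small amount in every shKDM6B library (log2 fold change -0.14, SE 0.042, adjusted p = 0.0135). The call was lost without shKDM6B replicate 3 (adjusted p = 0.0522) and when sparsely covered genes set the scaling (log2 fold change -0.09, adjusted p = 0.390), in a range of 0.00134 to 0.390 over the 16 alternatives.

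The initiator caspases of the death receptor route stood at high levels in both groups. CASP10 had 269, 270 and 272 CPM in shKDM6B libraries, against 290, 289 and 279 CPM in shLuc libraries, with no overlap (log2 fold change -0.08, SE 0.043, adjusted p = 0.142). CASP8 had 209, 208 and 203 CPM in shKDM6B libraries, against 199, 195 and 198 CPM in shLuc libraries, again with no overlap (log2 fold change 0.06, SE 0.041, adjusted p = 0.232). Neither passed the threshold, and the 95% intervals of the fold change ran from 0.889 to 1.01 for CASP10 and from 0.985 to 1.11 for CASP8. The ratio of CASP10 to CASP8 per kilobase was 1.23, 1.24 and 1.28 in shKDM6B libraries and 1.39, 1.41 and 1.34 in shLuc libraries.

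CASP6, an executioner caspase, had 25.7, 28.9 and 28.9 CPM in shKDM6B libraries, against 25.5, 23.0 and 25.3 CPM in shLuc libraries (log2 fold change 0.18, SE 0.081, adjusted p = 0.0794). It passed without shKDM6B replicate 1 (adjusted p = 0.0395) and when sparsely covered genes set the scaling (0.0228), in a range of 0.0228 to 0.283 over the 16 alternatives. CASP6 shares 105 exon bases with CCDC109B on the opposite strand, which had 57.5, 55.8 and 55.6 CPM in shKDM6B libraries, against 18.5, 25.3 and 23.6 CPM in shLuc libraries. The part of that overlap in the CASP6 counts was not tested. CASP9, the caspase of the apoptosome, had 20.7, 21.9 and 21.9 CPM in shKDM6B libraries, against 19.8, 23.4 and 20.3 CPM in shLuc libraries, which overlapped (log2 fold change 0.02, SE 0.090, adjusted p = 0.870).

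**Figure D3:**
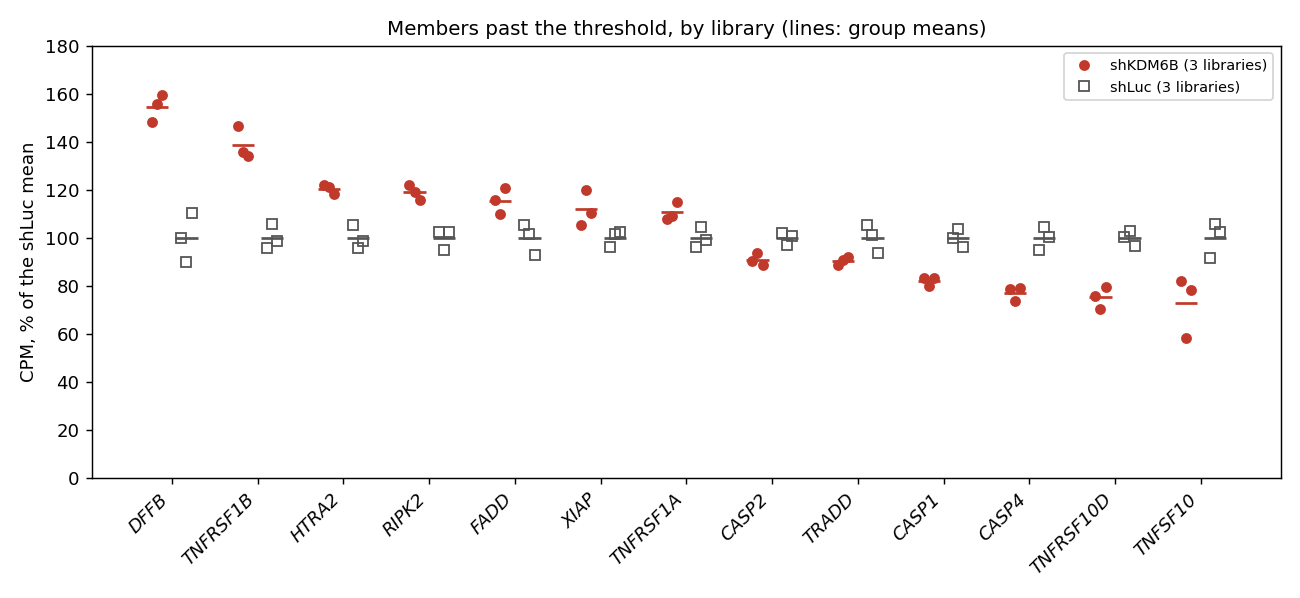
Level of each of the 13 cell death genes past the threshold in every library, as a percentage of the gene's shLuc mean (y axis, from 0), with shKDM6B as filled circles left of shLuc as open squares and lines for group means. The groups are separate for each of the 13 genes, and the shKDM6B level runs from 72.4% of shLuc for TNFSF10 to 155% for DFFB by the fitted fold change.

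Promoter sequences are shown for those of the 5 called genes with the largest fold changes that have 1 entry in the RefSeq promoter table (GRCh38.p14), which holds 22 of the 32 genes. They are the riser TNFRSF1B (chr1:12166741-12167040, plus strand) and the fallers TNFSF10 (chr3:172523381-172523680, minus strand) and CASP4 (chr11:104968525-104968824, minus strand), each from 250 bases before to 50 bases after the annotated start, 5′ to 3′ on the gene's strand. The motifs searched on both strands were a pair of GAAA letters with 2 bases between them (as in interferon-stimulated response elements), TTCNNNGAA (bound by STAT factors), TGANTCA (AP-1), CCGGAAG (ETS factors such as ELK1) and GGGA and TTTCC with 1 base between them (NF-kB), and matches are in capitals.
TNFRSF1B: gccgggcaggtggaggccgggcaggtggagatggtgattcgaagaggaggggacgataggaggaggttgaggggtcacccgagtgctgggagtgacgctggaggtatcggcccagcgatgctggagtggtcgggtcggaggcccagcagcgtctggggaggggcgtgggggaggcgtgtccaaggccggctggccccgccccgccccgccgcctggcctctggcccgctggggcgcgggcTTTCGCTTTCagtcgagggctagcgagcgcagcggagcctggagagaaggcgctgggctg
TNFSF10: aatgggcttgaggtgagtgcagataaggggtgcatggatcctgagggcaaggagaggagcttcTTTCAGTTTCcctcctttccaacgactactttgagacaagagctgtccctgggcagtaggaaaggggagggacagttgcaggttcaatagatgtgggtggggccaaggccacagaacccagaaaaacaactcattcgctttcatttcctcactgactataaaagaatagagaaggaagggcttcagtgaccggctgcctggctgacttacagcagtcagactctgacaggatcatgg
CASP4: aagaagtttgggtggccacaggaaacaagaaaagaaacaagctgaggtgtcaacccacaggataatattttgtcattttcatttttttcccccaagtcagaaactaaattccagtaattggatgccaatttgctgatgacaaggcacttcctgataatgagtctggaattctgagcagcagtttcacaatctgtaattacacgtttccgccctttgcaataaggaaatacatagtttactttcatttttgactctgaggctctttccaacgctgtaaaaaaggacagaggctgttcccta

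The GAAA pair was found in TNFRSF1B, as TTTCGCTTTC on the printed strand, and in TNFSF10, as TTTCAGTTTC, although one gene was higher and the other lower in shKDM6B cells. None of the 5 motifs was found in the 300 bases of CASP4. Of 34796 promoters in the table, 3.57% hold the GAAA pair, 7.67% TTCNNNGAA, 7.73% TGANTCA, 10.2% CCGGAAG and 0.56% the NF-kB letters. Among the 38 promoters of the 22 genes, 5 hold the GAAA pair (those of CASP8, RIPK1, TNFRSF1B and TNFSF10), 1 TTCNNNGAA (CASP8), 4 TGANTCA (CASP8, CFLAR and FADD), 4 CCGGAAG (BIRC6, CASP9, DIABLO and HTRA2) and 0 the NF-kB letters. Some of these promoters of 1 gene overlap, and a match of letters is not evidence of binding.

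Among the inhibitors, 1 of 3 rose. XIAP, which binds and blocks caspases, had 82.9, 94.5 and 86.9 CPM in shKDM6B libraries, against 75.8, 79.8 and 80.5 CPM in shLuc libraries. The rise was small, with no overlap between groups (log2 fold change 0.16, SE 0.052, adjusted p = 0.0178), and it was lost without shKDM6B replicate 2 (adjusted p = 0.160), without shLuc replicate 1 (0.0705), without the 3 libraries with keratin counts (0.261) and by the DESeq2 Wald test (0.103), in a range of 0.00346 to 0.261 over the 16 alternatives. CFLAR, the gene of the CASP8-like inhibitor FLIP, had 151, 154 and 160 CPM in shKDM6B libraries, against 152, 156 and 156 CPM in shLuc libraries (log2 fold change 0.0082, SE 0.042, adjusted p = 0.901). Its groups overlapped, and the 95% interval of its fold change ran from 0.946 to 1.07. The ratio of CFLAR to CASP8 per kilobase was 0.242 ± 0.011 in shKDM6B libraries and 0.252 ± 0.0051 in shLuc libraries (SD, n = 3 each). Merged exons span 22529 bases in CFLAR and 7243 in CASP8, so the size of this ratio depends on those lengths. BIRC6, a large ubiquitin ligase that also binds caspases, had 141, 173 and 177 CPM in shKDM6B libraries, against 157, 156 and 166 CPM in shLuc libraries (log2 fold change 0.04, SE 0.062, adjusted p = 0.646). The value of shKDM6B replicate 1 lay below those of all 5 other libraries, and without that library BIRC6 passed as higher (log2 fold change 0.14, adjusted p = 0.0332, in a range of 0.0332 to 0.974 over the 16 alternatives).

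Of the 6 apoptosome and mitochondrial factors, 1 rose and 5 did not pass. HTRA2, a protease of the intermembrane space that binds XIAP once released, had 66.8, 66.4 and 64.7 CPM in shKDM6B libraries, against 57.8, 52.5 and 54.0 CPM in shLuc libraries. The groups did not overlap, and the shKDM6B level was 121% of the shLuc level (log2 fold change 0.27, SE 0.053, adjusted p = 0.000306). HTRA2 shares 483 exon bases with AUP1 on the opposite strand, whose own level was 181, 176 and 170 CPM in shKDM6B libraries, against 182, 169 and 168 CPM in shLuc libraries (log2 fold change 0.03, SE 0.045, adjusted p = 0.688). It also shares 625 exon bases with LOXL3, which had 86 counts over all 6 libraries.

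CYCS, the gene of cytochrome c, had 125, 122 and 112 CPM in shKDM6B libraries, against 128, 116 and 120 CPM in shLuc libraries (log2 fold change -0.02, SE 0.050, adjusted p = 0.749). CYCS has many processed pseudogenes, so part of its reads may have been lost or assigned to them. APAF1, the scaffold of the apoptosome, had 12.1, 15.1 and 13.5 CPM in shKDM6B libraries, against 14.6, 16.4 and 16.2 CPM in shLuc libraries, which overlapped (log2 fold change -0.22, SE 0.11, adjusted p = 0.126). AIFM1, a mitochondrial flavoprotein that can move to the nucleus in cell death, had 117, 112 and 111 CPM in shKDM6B libraries, against 108, 113 and 106 CPM in shLuc libraries (log2 fold change 0.05, SE 0.045, adjusted p = 0.366). For these 3 genes the groups overlapped.

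ENDOG, a mitochondrial nuclease, had 37.0, 34.3 and 31.1 CPM in shKDM6B libraries, against 29.1, 32.8 and 30.2 CPM in shLuc libraries (log2 fold change 0.14, SE 0.078, adjusted p = 0.156). It passed as higher without shKDM6B replicate 3 (adjusted p = 0.0434) and when sparsely covered genes set the scaling (0.0471), and its log2 fold change was -0.02 without the 3 libraries with keratin counts (adjusted p = 0.944, in a range of 0.0434 to 0.944 over the 16 alternatives). ENDOG shares 460 exon bases with SPOUT1 on the opposite strand, listed in the files as C9orf114, which was higher in shKDM6B (log2 fold change 0.24, SE 0.046, adjusted p = 0.000232). DIABLO, which displaces caspases from XIAP, had 41, 65 and 51 counts in shKDM6B libraries and 29, 52 and 41 counts in shLuc libraries. These few counts gave a wide 95% interval of 0.932 to 1.66 for its fold change (log2 fold change 0.31, SE 0.20, adjusted p = 0.229). Its exons overlap B3GNT4 on the opposite strand by up to 970 bases and another coding gene on its own strand by 1139 bases, so the low counts need not reflect a low level of DIABLO.

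Of the 5 genes of DNA fragmentation, necroptosis and pyroptosis, 1 rose and 4 did not pass. DFFB, the caspase-activated nuclease, had 37.8, 39.7 and 40.6 CPM in shKDM6B libraries, against 25.4, 22.9 and 28.1 CPM in shLuc libraries. It was the largest change of the 30 genes, with means of 39.35 ± 1.42 CPM in shKDM6B and 25.48 ± 2.59 CPM in shLuc (n = 3 each, ± SD). The log2 fold change was 0.63 (SE 0.077, adjusted p = 9.48e-07), and the 95% interval of the fold change ran from 1.38 to 1.73. DFFA, the chaperone and inhibitor that holds DFFB inactive until caspases cut it, had 138, 135 and 138 CPM in shKDM6B libraries, against 141, 150 and 143 CPM in shLuc libraries (log2 fold change -0.08, SE 0.043, adjusted p = 0.158). The shKDM6B values of DFFA were all below its shLuc values, without passing the threshold. The ratio of DFFB to DFFA per kilobase, chosen after the values were seen, was 0.469, 0.504 and 0.504 in shKDM6B libraries and 0.309, 0.262 and 0.337 in shLuc libraries.

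The necroptosis kinase RIPK3 had 8.91, 9.20 and 10.7 CPM in shKDM6B libraries, against 11.4, 11.1 and 11 CPM in shLuc libraries (log2 fold change -0.21, SE 0.12, adjusted p = 0.206). Its substrate MLKL, the protein that opens the plasma membrane, had 14.9, 16.1 and 16.3 CPM in shKDM6B libraries, against 13.7, 13.8 and 15.3 CPM in shLuc libraries (log2 fold change 0.14, SE 0.10, adjusted p = 0.295). Neither passed, and their 95% intervals of 0.725 to 1.04 and 0.952 to 1.28 do not exclude changes of the size called in other genes. GSDMD, the pore-forming protein cut by CASP1 and CASP4 in pyroptosis, had 115, 110 and 112 CPM in shKDM6B libraries, against 117, 125 and 112 CPM in shLuc libraries, which overlapped (log2 fold change -0.07, SE 0.047, adjusted p = 0.256).

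**Figure D4:**
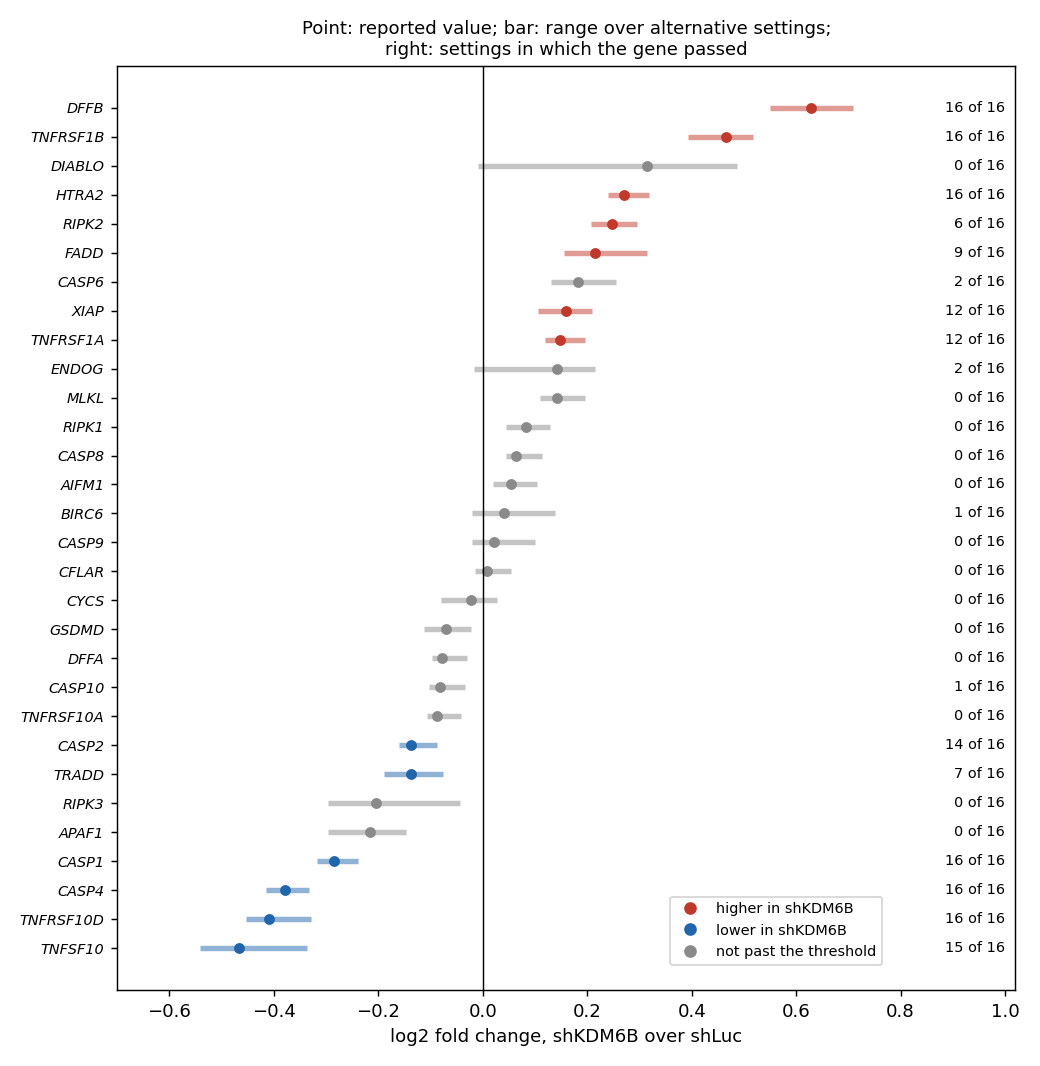
Log2 fold change of shKDM6B over shLuc (x axis) for the 30 tested genes, sorted by value; points give the reported value, bars the lowest to highest value over 16 alternative settings, and the numbers at the right the settings in which the gene passed an adjusted p of 0.05. The 13 called genes keep their direction throughout, and RIPK2 (6 of 16), TRADD (7 of 16) and FADD (9 of 16) pass least often among them.

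Of 38 other genes of the same pathways 32 were tested, of which 9 rose, 8 fell and 15 missed the threshold (53.1% called, beside 39.1% of all tested genes). Their median log2 fold change was 0.02. RBCK1, a subunit of the ubiquitin ligase that attaches linear chains at the TNF receptor, had 66.1, 72.1 and 75.5 CPM in shKDM6B libraries, against 118, 130 and 116 CPM in shLuc libraries (log2 fold change -0.77, SE 0.055, adjusted p = 2.49e-10). The other subunits of that ligase, RNF31 (log2 fold change 0.05, adjusted p = 0.596) and SHARPIN (-0.02, adjusted p = 0.759), did not pass. BIRC3, a ubiquitin ligase of the TNF receptor complex, had 112, 108 and 115 CPM in shKDM6B libraries, against 69.8, 77.7 and 76.6 CPM in shLuc libraries (log2 fold change 0.57, SE 0.049, adjusted p = 4.67e-09). Its relative BIRC2 was lower (-0.16, SE 0.052, adjusted p = 0.0202). PGAM5, a mitochondrial phosphatase linked to cell death, had 97.2, 95.5 and 86.5 CPM in shKDM6B libraries, against 59.9, 68.4 and 60.2 CPM in shLuc libraries (log2 fold change 0.56, SE 0.058, adjusted p = 8.31e-08). The kinase adaptor TAB2 (-0.27), the deubiquitinase CYLD (-0.18), TRAF3 (0.20), TRAF2 (0.18) and BIRC5 (0.23), a protein of the inhibitor of apoptosis family that also acts in mitosis, also passed. TNF had 0 counts in all 6 libraries. Fewer of the list passed without the 3 libraries with keratin counts, as did fewer of all tested genes. The drop was proportionally larger in the list than in all tested genes, in a setting that leaves 1 shKDM6B library. Without shKDM6B replicate 1 alone, 4 of the list were lower, against 8, beside 2262 of all tested genes, against 2622.

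In bulk RNA, fewer cells that express a gene and less RNA of that gene per cell cannot be told apart, which applies to every value above. No protein level, cleavage or cell viability was measured in these files.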

How the data were processed

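RNA-seq had been made of 3 shKDM6B and 3 shLuc libraries of MM.1S. The authors deposited raw counts per gene symbol for each library, and STAR, featureCounts and DESeq with GRCh37 (hg19) are named in the submitters' processing notes; versions, annotation, strand setting and treatment of duplicate or multi-mapping reads are not stated in the labels or headers. The deposited normalized signal equals the counts over a single factor for each library (largest deviation 7.13e-07 counts over 56609 matched names). The series text speaks of transduction in triplicate and does not say that cultures stayed apart, so p-values measure the spread between libraries, which may be technical.

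For the 56637 symbols, edgeR 4.0.16 was run under R 4.3.3 on the counts (TMM scaling, filterByExpr, glmQLFit and glmQLFTest with the group alone) on all 6 libraries, with Benjamini-Hochberg adjustment over 13839 genes and a threshold of 0.05. Every p named as adjusted is from this test unless another is named, and every SE is the one implied by its statistic. Exon lengths and overlaps come from GENCODE 29 (GRCh38), another build than the counts'. Alternatives were other scalings, filters, limma-voom and limma-trend (limma 3.58.1; pseudocount 1), DESeq2 1.42.0, a replicate block, a threshold of 0.01 and libraries left out. All members are named; called members and those with high levels are given per library, and the 8 other pathway genes past the threshold with the smallest p are named, and RNF31, SHARPIN, BIRC2 and TNF were chosen after their values were seen. Members and lists were chosen with earlier results of these data known, and none of the ratios between genes was planned. A few genes of the other lists are not reported here by name.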

Additional observations from a re-analysis of the deposited data

How the results depend on the processing

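KDM6B kept its direction and its call under every alternative, with a log2 fold change from -0.79 to -0.66 when 1 library was left out. Its log2 fold change was -0.58 without the 3 libraries with keratin counts. Called members kept their direction in all 16 alternatives, and 6 of the 13 passed in each of them; 4 of the 17 that did not pass did so in some alternative. With 1 library left out, 4 to 7 members were higher and 4 to 6 lower, 6 to 8 other pathway genes were higher and 4 to 7 lower, and over all genes 2290 to 2567 were higher and 2211 to 2536 lower; the 4 higher members came without shLuc replicate 1. Without the 3 libraries with keratin counts, fewer genes passed among members, other pathway genes and all genes, with the largest proportional drop among other pathway genes. In that setting the 1 remaining shKDM6B library is assumed to vary like the others. Members higher numbered 3 by the DESeq2 Wald test and 3 at a threshold of 0.01, against 7. All genes higher numbered 1966 and 2035 in these settings, against 2783. Other pathway genes lower numbered 4 by DESeq2 and 4 at 0.01, against 8. All genes lower numbered 1855 and 1853, against 2622. Other pathway genes lower numbered 3 when sparsely covered genes (under 0.03 counts per base) set the scaling. That scaling, from 3376 genes, moved the median of all genes by 0.05 and gave 3128 higher and 1901 lower genes, against 2783 and 2622; the cause was not tested.

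Among members, signs changed in 6 genes that did not pass. CFLAR was at -0.01 with upper-quartile scaling, -0.015 without shKDM6B replicate 3 and -0.005 without shLuc replicate 1 (at most 0.030 with 1 library left out). CASP9 was at -0.021 without shLuc replicate 1 and -0.017 without shLuc replicate 3. CYCS was at 0.026 when sparsely covered genes set the scaling, 0.028 without shKDM6B replicate 3 and 0.01 without shLuc replicate 1 (lowest with 1 library left out, -0.057). BIRC6 was at -0.004 without shKDM6B replicate 2 and -0.02 without shKDM6B replicate 3 (highest with 1 left out, 0.136), and DIABLO at -0.01 and ENDOG at -0.016 without the 3 libraries with keratin counts.

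With the replicate number as a block, 3166 genes were higher and 3052 lower, 7 members higher and 7 lower, CASP10 joining them (adjusted p = 0.0454). Same-numbered libraries did not deviate together in every pair (correlations 0.116, -0.077 and 0.152), so the numbers were not taken to pair the libraries. Within groups, the median slope of counts on depth (both log2) was 1.29 for genes under 0.03 counts per base, 1.18 from 0.03 to 0.1, 0.992 from 0.1 to 0.3 and 0.738 from 0.3 to 1. DFFB, CASP4, TNFSF10 and KDM6B lie in the band with a slope of 1.18, and TNFRSF1B and CASP10 in that with 0.738. The part of this in their fold changes was not tested.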
